A study of Arabidopsis thaliana with 2 samples.

Results

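The genes described here are members of the lipid-transfer and hybrid proline-rich protein superfamily of Arabidopsis thaliana, chosen as a list of 10 loci around AT1G73780. A locus was read only where the platform's gene table gives it a probe set of its own, which was the case for 5 of the 10: AT1G73780, AT1G62500, AT1G62510, AT2G45180 and AT4G22460. These are 5 of the 13355 genes with a single-gene probe set on the array. The loci AT1G12090 (ELP, an extensin-like protein), AT4G12545, AT4G12550 (AIR1, named for its induction by auxin in root cultures) and AT4G00165 are not paired with a probe set in that table. AT5G46890 shares its probe set with a second locus. These 5 loci were not analysed here. The list was chosen by the readout itself, around the log2 difference of AT1G73780 between the conditions, which was the lowest on the array, so every difference given here is a description and none is tested.

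The RNA came from pericycle cells, marked by green fluorescence in the reporter line J2661 (ecotype Columbia) and sorted from protoplasted seedling roots. Both groups had the same line, ecotype and age of 7 days, with 6 days on standard medium. The group with iron then spent 24 h on medium with Fe(III)-EDTA, and the group without iron spent 24 h on medium in which 0.3 mM ferrozine, a chelator of iron, took the place of the iron salt. Each group had 1 sample, labelled replicate 1, so no difference has a replicate check, an SD or a p-value, and the promoter or enhancer behind J2661 is not given in the sources used here.

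Proteins of this superfamily are small and usually secreted, and a conserved pattern of cysteines, paired in disulfide bonds, folds them around a cavity that can hold a lipid. Non-specific lipid-transfer proteins (nsLTPs) can carry lipids between membranes in the test tube, and the family is associated with cutin, suberin and defence in the plant's outer and barrier tissues. In hybrid proline-rich proteins the cysteine domain follows a proline-rich stretch thought to sit in the cell wall. AT1G62500 and AT1G62510, which neighbour each other in the reference annotation, are used as markers of the root cortex, a layer that lies outside the endodermis and the pericycle.

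Values are the deposited intensities, in arbitrary linear units. Across the 22746 plant probe sets they ran from 0.484 to 62.8 with iron (median 0.852) and from 0.329 to 83.5 without (median 0.866). Probe sets for Bacillus transcripts, which no plant makes, gave a low reference level on each array: the 27 of them read 0.531 to 0.727 with iron and 0.389 to 0.635 without. Dim probe sets were mostly lower and bright ones mostly higher without iron, so each difference is accompanied by a relative difference, its distance from a smooth trend of difference on mean log2 value (like brightness). A local SD, printed beside it, is a robust SD over the 500 probe sets of nearest brightness, a spread between probe sets and not between replicates. A probe set counted as past the filter where its larger value reached 0.858, the median over all plant values.

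All 5 measured members read lower without iron, and 1 of them, AT1G73780, differed by at least 1.5-fold. Over all plant probe sets, 50.1% were lower and 0.233% were at least 1.5-fold lower. Since the members were chosen around this contrast, nothing is read from their count beside those shares. The median log2 difference of the 5 (without iron over with iron) was -0.36, against 0.00 over all plant probe sets and -0.28 over the 10874 below the filter, where 93.8% were lower. Relative to like brightness the median of the 5 was -0.14, and all 5 lay below 0, as did 49.2% of all plant probe sets. In sorted cells, fewer cells carrying a transcript and less of it per cell cannot be told apart.

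**Figure D1:**
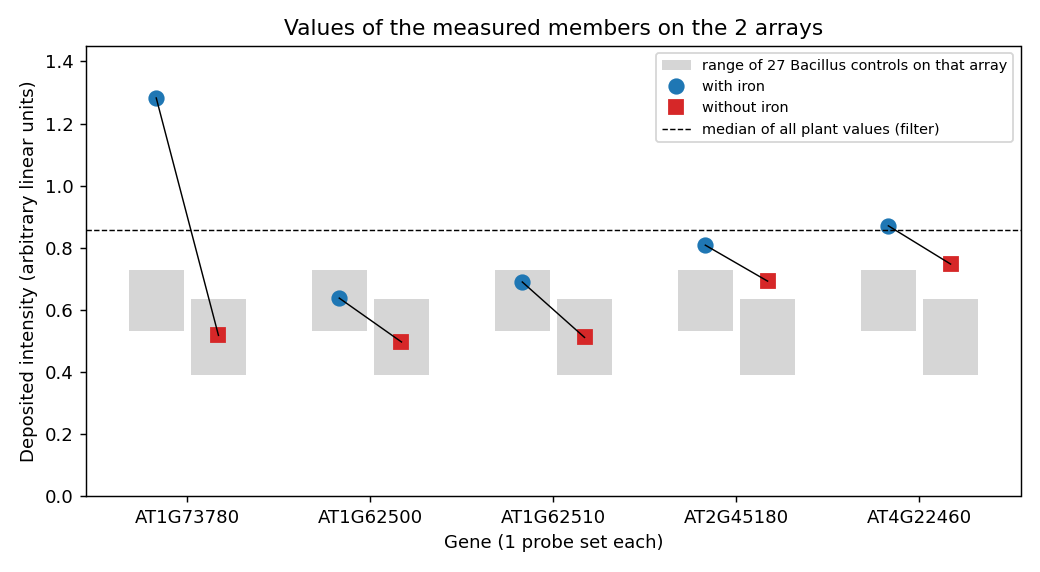
Deposited intensity (arbitrary linear units, axis from 0) of the 5 measured members, 1 point per array, with iron (circles) and without (squares), with the range of the 27 Bacillus controls on each array in grey and the filter value of 0.858 as a dashed line. AT1G73780 goes from 1.28, above the grey range, to 0.518, inside it, while the cortex markers AT1G62500 and AT1G62510 lie inside the range on both arrays and AT2G45180 and AT4G22460 just above it on both.

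AT1G73780, listed here among the type 2 nsLTPs, read 1.28 with iron and 0.518 without. Its value with iron was 1.76 times the highest Bacillus control on that array, and its value without iron lay inside the control range, at 0.816 times the highest. A value above the control range with iron and inside or below it without was seen at 464 of the 22746 plant probe sets (2.04%). Among the 36 measured superfamily genes other than members, 3 (8.33%) showed the same pattern. The median with iron of the 464 was 0.748, close to the highest control of 0.727, and AT1G73780 had the highest value with iron of the 464. The difference was 2.48-fold, or -1.31 on the log2 scale, and stood first from the bottom among all plant probe sets, where 0.0176% were at least 2-fold lower. Because the value without iron is at the low reference level, the size of this fold depends on background.

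AT1G73780 stood about as far from probe sets of its own brightness. The trend there was -0.02 on the log2 scale, so its relative difference was -1.29, or 2.45-fold, with a local SD of 0.13, and it was the lowest of the 500 probe sets of nearest brightness. Over all plant probe sets it was number 6 from the bottom on this relative scale, on which 0.774% were at least 1.5-fold lower. The 500 probe sets nearest to it in value with iron, from 1.25 to 1.32, read a median of 1.65 without iron. None of them read below 0.889, so 0.518 lay under all of them. AT1G73780 was chosen for the lowest log2 difference on the array, so these low positions follow largely from the choice and are not separate evidence. In the authors' deposited table its q-value for the difference was 0.00194. That table gives a q-value under 0.05 to 61.3% of all plant probe sets and to all 27 Bacillus controls.

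The edge of the choice can be seen from the neighbours of AT1G73780 in the ranking of genes past the filter that the authors' deposited table gives a q-value below 0.05. Just behind its log2 difference of -1.31 came AT2G07721 at -1.10, AT5G19890 at -1.06 and AT2G16740 at -0.87. On the relative scale AT2G07721 was at -1.32 and so below AT1G73780 at -1.29. The genes most like AT1G73780 by Euclidean distance over its 2 log2 values were AT5G19890, a class III peroxidase gene, at a distance of 0.17, AT2G46380 at 0.37 and AT1G19900 at 0.47. AT5G19890 read 1.18 with iron and 0.565 without. The likeness rests on 2 samples and on values that are low on the array without iron.

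**Figure D2:**
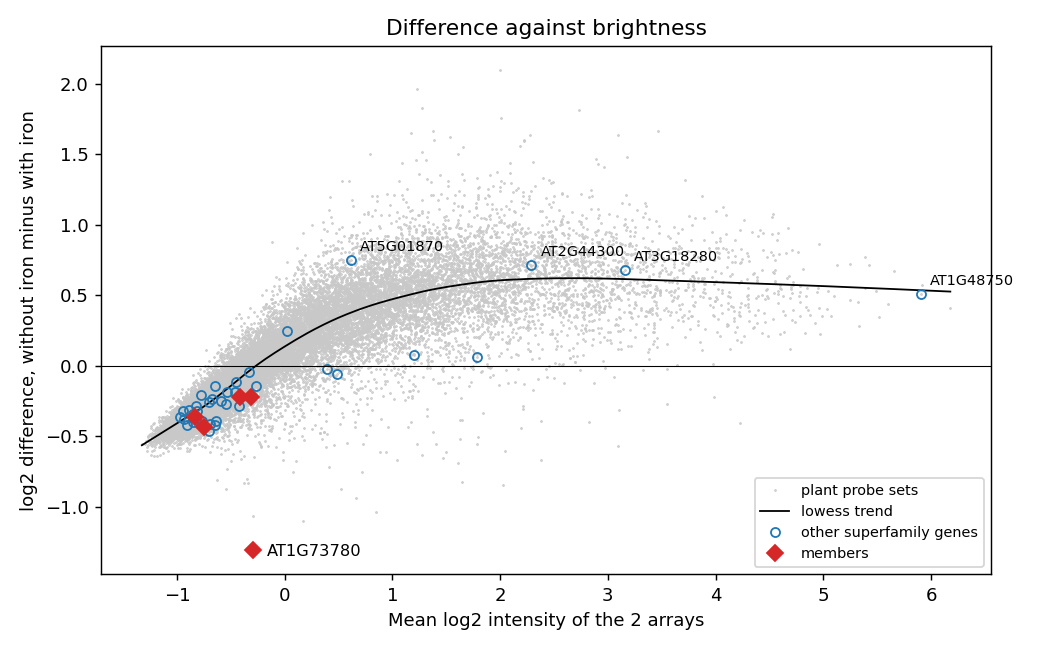
Log2 difference (without iron minus with iron) against mean log2 intensity of the 2 arrays for all plant probe sets (grey), with the lowess trend (line), the 5 members (filled diamonds) and the other 36 measured superfamily genes (open circles). AT1G73780 sits at -1.31, under every other plant probe set, while the other 4 members lie below the trend among the dim probe sets, at -0.20 to -0.03 relative to it.

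The cortex markers among the members read at the low reference level. AT1G62500 read 0.638 with iron and 0.497 without, inside the control range on both arrays. Its log2 difference was -0.36 on the deposited values and -0.03 against like brightness (local SD 0.07), number 157 from the bottom among 500, so its position was an ordinary one among dim probe sets. AT1G62510 read 0.690 with iron and 0.511 without, also inside the range on both. Its log2 difference was -0.43 on the deposited values and -0.14 against like brightness (local SD 0.08), number 22 from the bottom among 500. The annotation places a further locus, AT1G62515, across AT1G62510, and signal of the 2 cannot be told apart here.

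The other hybrid proline-rich members, AT2G45180 and AT4G22460, read slightly above the controls on both arrays. AT2G45180 read 0.808 with iron and 0.693 without, 1.11 and 1.09 times the highest control. Its log2 difference was -0.22 on the deposited values and -0.13 against like brightness (local SD 0.12). AT4G22460 read 0.871 with iron and 0.748 without, 1.20 and 1.18 times the highest control. Its log2 difference was -0.22 on the deposited values and -0.20 against like brightness (local SD 0.13), number 44 from the bottom among 500. Against the median control instead, AT2G45180 stood at 1.36 times with iron and 1.57 times without, and AT4G22460 at 1.46 and 1.70 times. A second annotated locus, AT4G22463, overlaps AT4G22460.

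Only AT1G73780 and AT4G22460 were past the filter, and both passed it through the array with iron alone. The same was seen at 412 of the 11872 plant probe sets past the filter. The filter itself thus favours a lower value without iron for these 2 members (10.1% of plant probe sets past it were lower). The remaining 3 were below it on both arrays. The 4 members other than AT1G73780 had relative differences from -0.20 to -0.03, none of them at 1.5-fold. The authors' deposited table gives 3 of the 5 members a q-value below 0.05, beside 61.3% of all plant probe sets, 79.7% of those below the filter and 44.5% of those past it. The q-values in the authors' deposited table were 2.18e-04 for AT1G62500 and 0.0125 for AT1G62510, and 0.120 for AT2G45180 and 0.164 for AT4G22460.

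Cell type markers were read beside these values. AT4G30450, the 1 measured of 6 listed pericycle and stele markers, read 40.6 with iron and 51.5 without, above the controls on both arrays, with a log2 difference of 0.34 and a relative one of -0.20 (local SD 0.25). Of 5 listed cortex markers 4 were measured, 2 of them the members AT1G62500 and AT1G62510. None was past the filter, and the 4 summed to 2.80 with iron and 2.22 without. AT1G09750 read 0.700 and 0.519, inside the control range on both arrays, and AT5G02000 read 0.775 and 0.691, above it on both. The 2 measured markers of epidermis and root hairs out of 6, the expansins EXPA7 and EXPA18, summed to 2.06 with iron and 1.62 without, and their relative log2 differences were -0.47 and -0.36 (local SDs 0.14 and 0.16). GSO1, a receptor kinase and the 1 measured endodermis marker of 9, read 1.46 and 1.44, with a relative log2 difference of -0.37 (local SD 0.19). OPS was the 1 measured of 3 phloem markers, at 0.768 with iron and 0.866 without (relative log2 difference 0.19), and none of the 4 xylem markers had a probe set of its own. The summed cortex markers differed by -0.34 on the log2 scale, and the summed epidermis and root hair markers also by -0.34. Both differences of sums were smaller than the median of -0.42 over the single Bacillus controls. Of the 4 cortex markers 3 lay inside the control range on both arrays, and of the 2 epidermis and root hair markers 0 did. All measured markers other than OPS lay below the trend, as did 49.2% of all plant probe sets. AT1G73780 lay further below it, at -1.29, and 2 of the markers are members chosen around this contrast. The 4 cortex markers had relative log2 differences from -0.15 to -0.03. The part of any of these cell types in the difference of AT1G73780 was not tested.

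The rest of the superfamily gave a wider frame. Of 97 listed genes, 41 had a single-gene probe set, and 36 of these are not members. Of the 36, 29 were lower and 7 higher without iron as deposited, with a median log2 difference of -0.26 (50.1% of all plant probe sets were lower). Relative to like brightness 24 lay below 0 and 12 above, with a median of -0.02, and none reached 1.5-fold in either direction. Of all plant probe sets 49.2% lay below 0 on this scale. Below the filter were 26 of the 36, all lower as deposited, as were 93.8% of all plant probe sets below it. The median relative difference of the 26 was -0.01. Of the 36, 18 read inside or below the control range on both arrays (50.0%), beside 33.9% of all plant probe sets.

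The subfamily of AT1G73780, the type 2 nsLTPs, held 8 other measured genes. Of these, 2 were past the filter, and both were higher without iron, as were 10672 of the 11872 plant probe sets past it. AT1G48750 read 50.1 with iron and 71.3 without, a log2 difference of 0.51 on the deposited values and -0.03 against like brightness (local SD 0.25). AT3G18280 read 7.05 and 11.3, a log2 difference of 0.68 on the deposited values and 0.07 against like brightness. Both stood on the trend for their brightness. The 6 below the filter had relative differences between -0.10 and 0.09. With 1 array per condition the difference between AT1G73780 and these genes was not tested.

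Among the 3 measured type 1 nsLTPs, AT5G01870 read 1.18 with iron and 1.99 without, 1.68-fold higher as deposited, beside 12.6% of all plant probe sets, and 24.1% of those past the filter, that were at least 1.5-fold higher. It was 1.30-fold higher relative to like brightness (log2 0.37, local SD 0.20), the highest relative value of the 41, and its q-value in the authors' deposited table was 0.151. The other two type 1 genes were below the filter. AT4G22610 was the 1 gene past the filter among the 7 other hybrid proline-rich genes, and read 0.931 with iron and 1.10 without, a log2 difference of 0.25 on the deposited values and 0.10 against like brightness. AT5G48490, the DIR1-like gene and the 1 measured of 2 listed genes of the DIR1 group, a group known for systemic defence signalling, was below the filter at 0.714 and 0.535. None of the 5 listed 2S albumin genes, which encode seed storage proteins, was measured.

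The glycosylphosphatidylinositol-anchored (LTPG) group, whose proteins are tethered to the outer face of the plasma membrane, held 17 measured genes, 6 of them past the filter. AT2G44300 read 3.82 with iron and 6.26 without, 1.64-fold higher on the deposited values, with a relative log2 difference of 0.10, with a q-value of 0.0399 in the authors' deposited table. The other 5 past the filter lay below the trend, against 48.8% of all plant probe sets past the filter. They are named here after their values were seen. AT1G62790 read 3.37 and 3.52, a relative log2 difference of -0.53 (local SD 0.22), and AT3G22620 read 2.24 and 2.37, at -0.44 (local SD 0.22). AT2G48130 and AT2G27130 had relative log2 differences of -0.40 and -0.33, and AT3G22570 had -0.15. As deposited these 5 differed between the arrays by 1.02-fold to 1.11-fold. Their q-values in the authors' deposited table ran from 0.190 to 0.259.

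**Figure D3:**
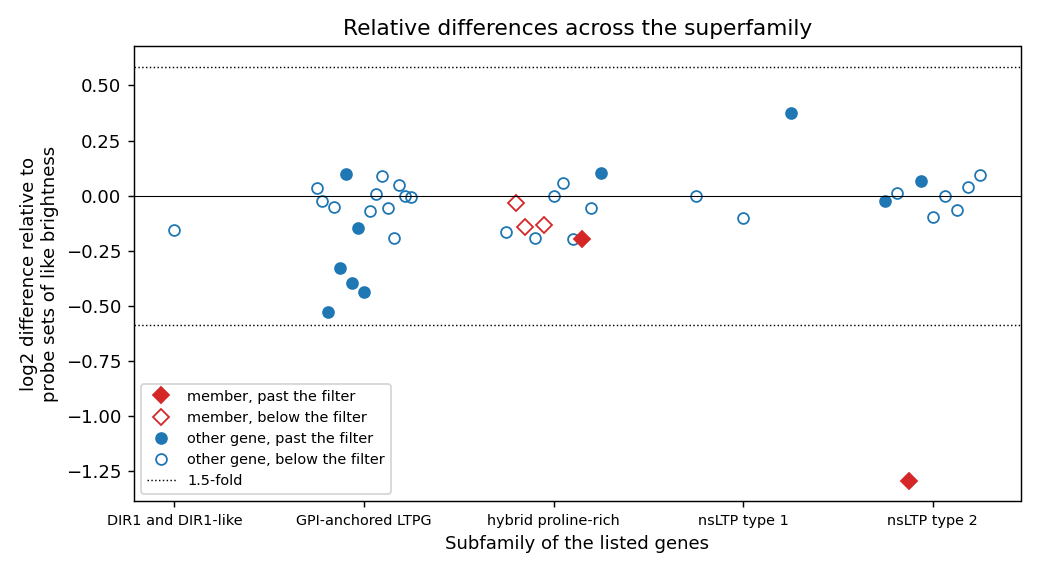
Log2 difference relative to probe sets of like brightness for the 41 measured superfamily genes by subfamily, 1 point per gene, members as diamonds and others as circles, filled where past the filter, with dotted lines at 1.5-fold. AT1G73780 at -1.29 is the only point outside the dotted lines, and 5 of the 6 filled LTPG points lie below 0.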

How the data were processed

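The authors deposited 1 intensity value per probe set and sample, on a linear scale, and per the labels the arrays were Affymetrix arrays hybridised with biotin-labelled cRNA amplified in successive rounds, which can widen differences between arrays. For background correction, summarisation, scaling and genome build, the steps are not stated in the labels or file headers. The q-value per probe set is that of the authors' deposited table, and the test behind it is not given either. No per-sample column was left unused.

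Of 22801 probe sets, 55 controls were set aside. Genes came from the platform table and were updated by gene ID through a RefSeq gene table (TAIR10.1). Coordinates were used only to find loci that neighbour or overlap the members. Of the probe sets, 13513 had 1 gene, 503 several and 8785 none. Differences are log2 ratios with no pseudocount. The trend is a lowess curve (fraction 0.2, statsmodels 0.14.6). Its code was run on data simulated from the fitted trend itself, which cannot show whether the trend suits these arrays. The members, gene lists and naming rule were chosen with earlier results of these data known. Named were all members, the brightest gene of each subfamily, listed genes past the filter at 1.5-fold in either form, the 3 genes nearest to AT1G73780, the listed markers, the genes next in rank to AT1G73780 and, outside this rule and after their values were seen, 5 LTPG genes. The number of arrays limits the precision. Alternatives were other centrings, pseudocounts, filters and thresholds. Protein and promoter sequences were not analysed here.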

Additional observations from a re-analysis of the deposited data

How the results depend on the processing

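All 5 members stayed below 0 under every centring and pseudocount tried (quantile normalization, the median difference of probe sets past the filter set to 0, subtraction of the brightness trend, removal of a fitted offset and scale, pseudocounts of 1 and 0.25). A pseudocount added to both arrays cannot change the sign of a difference. Setting the median to 0 lowered every difference, so neither could bring a member above 0. Against like brightness 49.2% of all plant probe sets lay below 0, and the members were chosen around this contrast. The 4 members other than AT1G73780 ranged from -0.80 to -0.02 on the log2 scale. AT1G73780 went from -1.31 to -1.67 with the median set to 0, -0.996 after that offset and scale were removed, -0.997 with a pseudocount of 0.25, -0.59 with a pseudocount of 1, and -1.67 against the median of the 500 probe sets of like value with iron, an alternative chosen after seeing the data. The median of the members was -0.73 with the median set to 0, -0.12 after that offset and scale were removed, -0.13 with a pseudocount of 1, -0.15 after quantile normalization, -0.14 relative to like brightness, and -0.76 over the 2 members past the filter, both of which were lower. With the median set to 0, which lowers every difference by 0.37, 5 members instead of 1 were at least 1.5-fold lower, as were 33.0% of all plant probe sets and 65.9% of those below the filter. For the superfamily genes other than members past the filter, the median log2 difference of 0.16 became 0.60 with a filter at the 75th percentile, -0.26 with no filter and -0.0855 against like brightness. Of these 10 genes 3 were at least 1.5-fold higher on the deposited values (24.1% of all plant probe sets past the filter) and 0 against like brightness. Leaving out a replicate was not possible, as each group had 1 sample. No paired analysis was possible because each group holds 1 sample. Values near the Bacillus controls limit what the array can show for 3 of the 5 members without iron.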

Other observations

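Among the members, q-values under 0.05 in the authors' deposited table went to the 3 that lay inside the range of the Bacillus controls on the array without iron (AT1G73780, AT1G62500 and AT1G62510), and not to the 2 above that range on both arrays. Likewise the authors' deposited table gives a q-value under 0.05 to 24 of the 26 superfamily genes other than members below the filter and to 2 of the 10 past it, beside 79.7% and 44.5% of all plant probe sets below and past the filter. The Bacillus controls themselves were lower without iron at 27 of 27, by a median of -0.42 on the log2 scale, and the highest of their q-values in the authors' deposited table was 0.00674. AT1G62500, at -0.36, differed between the arrays by less than that median, and AT1G62510, at -0.43, by about as much.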
